A study of Mus musculus with 11 samples.

Results

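The 8 genes described here encode receptor chains for growth factors and hematopoietic cytokines: Epor, Csf2ra, Il3ra, Csf2rb, Il6ra, Il6st, Csf1r and Flt3. They were chosen by name as a family of receptors, each was read from its only probe set with exactly 1 gene symbol, and they are 8 of the 19933 genes that such probe sets measured. RNA was labelled with biotin and hybridised to single-colour arrays, with 1 array for each genotype and cell type, 11 arrays in all. KO mice carried gfp on both alleles of Zbtb46 (Zbtb46 gfp/gfp), Het mice on 1 allele (gfp/+) and WT mice on none, all on the C57Bl/6 background and examined at steady state. Zbtb46 encodes a zinc finger transcription factor known for its expression in classical dendritic cells (DC). Splenic CD4+ DC, sorted as B220-, CD8- cells that carried CD4, CD11b, CD11c, CD172 and MHC class II, came from KO and WT mice. From bone marrow of all 3 genotypes came 3 lineage-negative, CD117+ stages that lacked CD41 and CD16/32. Pre MegE cells were CD150+ and CD105-, Pre CFU-E cells CD150+ with low CD105, and CFU-E cells CD150- and CD105+. The labels do not give the age, sex or number of mice behind an array, nor whether 1 mouse gave several cell types, and the p-values below therefore measure agreement between these arrays.

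Values are log2 of the deposited linear intensities, and a difference of 1 on this scale is a doubling. The median of all probe sets lay between 195.65 and 218.37 intensity units on the 11 arrays, and a gene below it is treated here as not clearly measured. The targeted gene Zbtb46 read 8.02 in KO and 9.67 in WT CD4+ DC, and 7.51 in KO, 8.62 in Het and 8.87 in WT CFU-E. It read 7.71, 8.31 and 8.14 in KO, Het and WT Pre CFU-E, and 7.71, 7.67 and 7.52 in KO, Het and WT Pre MegE, where it was close to the median. Several gate genes followed the labels: Itgax, H2-Ab1 and Cd4 read 11.96 to 14.00 in CD4+ DC, Cd8a read 7.35 and 7.14 there, and Slamf1 (CD150) read 6.47 to 6.98 in CFU-E and 11.44 to 11.51 in Pre MegE. Others did not. Eng, the gene of CD105, read 11.69 to 11.84 on all 9 progenitor arrays although the gates separate the stages by that protein. Itga2b, the gene of CD41, was above the array median on every Pre MegE array although the gates exclude that protein. It was lower in Pre CFU-E than in Pre MegE (difference -2.21) and lower again in CFU-E (-0.765).

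Epor, the erythropoietin receptor, forms a homodimer that signals through the kinase JAK2 and keeps late erythroid progenitors alive. Csf2ra and Il3ra encode the ligand-binding alpha chains for GM-CSF and interleukin 3, which signal through the common beta chain of Csf2rb, and mice carry a close copy of that chain, Csf2rb2, which serves interleukin 3. Il6ra binds interleukin 6 and signals through Il6st (gp130), a chain that the receptors for LIF, oncostatin M, interleukin 11 and interleukin 27 also use. Csf1r and Flt3 are receptor tyrosine kinases related to Kit. Csf1r is the receptor by which monocytes and macrophages respond to CSF-1 and interleukin 34, and Flt3 is known for its role in early multipotent progenitors and in the making of DC.

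Promoter windows of 250 bases before to 50 bases after the gene start were taken from RefSeq (GRCm38.p6) for the 6 members that matched. They are shown for Epor, the member that rose from stage to stage, for Csf2ra, an alpha chain that fell at both steps, and for Csf2rb2, which neighbours Csf2rb on chromosome 15 with 0 annotated genes wholly between the 2. Capitals mark the words AGATAA (read by GATA factors), GAGGAA (read by PU.1 and other ETS factors) and CCACCC (read by KLF and Sp factors), searched on both strands, so that TTATCT and TTCCTC are the first and second words on the other strand. The sequences run 5′ to 3′ on the gene's strand, which is the minus strand for all 3, at chr9:21963527-21963826, chr19:61228369-61228668 and chr15:78305672-78305971.
Epor: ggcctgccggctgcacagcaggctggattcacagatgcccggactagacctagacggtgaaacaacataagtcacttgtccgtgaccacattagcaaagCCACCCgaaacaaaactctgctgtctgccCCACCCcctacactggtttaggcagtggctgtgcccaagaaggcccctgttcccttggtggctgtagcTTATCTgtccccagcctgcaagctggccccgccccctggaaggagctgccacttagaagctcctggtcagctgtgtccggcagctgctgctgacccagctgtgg
Csf2ra: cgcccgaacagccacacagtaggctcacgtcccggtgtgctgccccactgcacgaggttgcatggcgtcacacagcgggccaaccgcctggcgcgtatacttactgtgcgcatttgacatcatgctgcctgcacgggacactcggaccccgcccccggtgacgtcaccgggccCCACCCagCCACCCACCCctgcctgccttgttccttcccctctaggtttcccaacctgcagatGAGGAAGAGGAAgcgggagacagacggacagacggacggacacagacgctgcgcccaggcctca
Csf2rb2: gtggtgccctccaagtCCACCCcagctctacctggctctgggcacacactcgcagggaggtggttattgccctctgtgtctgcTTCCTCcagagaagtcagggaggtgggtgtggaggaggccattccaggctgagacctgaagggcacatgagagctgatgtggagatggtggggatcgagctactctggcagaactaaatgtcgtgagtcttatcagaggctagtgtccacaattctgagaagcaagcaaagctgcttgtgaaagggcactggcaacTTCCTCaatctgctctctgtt
The Epor window held AGATAA on the other strand, starting 54 bases before the gene start, and CCACCC starting 151 and 122 bases before it. The Csf2ra window held GAGGAA in tandem, 14 and 8 bases before the start, and CCACCC at 77, 69 and 65 bases before it, the last pair overlapping. The Csf2rb2 window held GAGGAA on the other strand 167 bases before and 29 bases after the start, and CCACCC 234 bases before it. AGATAA was in the windows of Epor and Il6ra, GAGGAA in those of Csf2ra and Il6ra, CCACCC in those of Epor, Csf2ra, Il3ra and Il6st, and none of the 3 words was in the Flt3 window. Of all 32851 windows of this length, 11.2% held AGATAA, 28.3% GAGGAA and 31.5% CCACCC, so such matches are common and describe letters only.

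Epor was the 1 receptor of the set that rose along the erythroid path, and it did so at each step. It read 11.01 in KO, 11.03 in Het and 10.86 in WT Pre MegE. The Pre CFU-E arrays gave 11.83 in KO, 11.77 in Het and 11.70 in WT, and the CFU-E arrays 12.19 in KO, 12.18 in Het and 12.13 in WT. The 3 stages did not overlap. Pre CFU-E exceeded Pre MegE by 0.80 (SE 0.047, 1.74-fold, adjusted p = 7.55e-07) and CFU-E exceeded Pre CFU-E by 0.40 (1.32-fold, adjusted p = 0.000136), both in 3 of 3 genotypes. CFU-E was 2.29-fold above Pre MegE. Among the probe sets of an array Epor stood at the 86.1st to 87.6th percentile in Pre MegE and at the 94.4th to 94.9th in CFU-E. In CD4+ DC it read 7.72 in KO and 7.70 in WT, close to the array median.

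**Figure D1:**
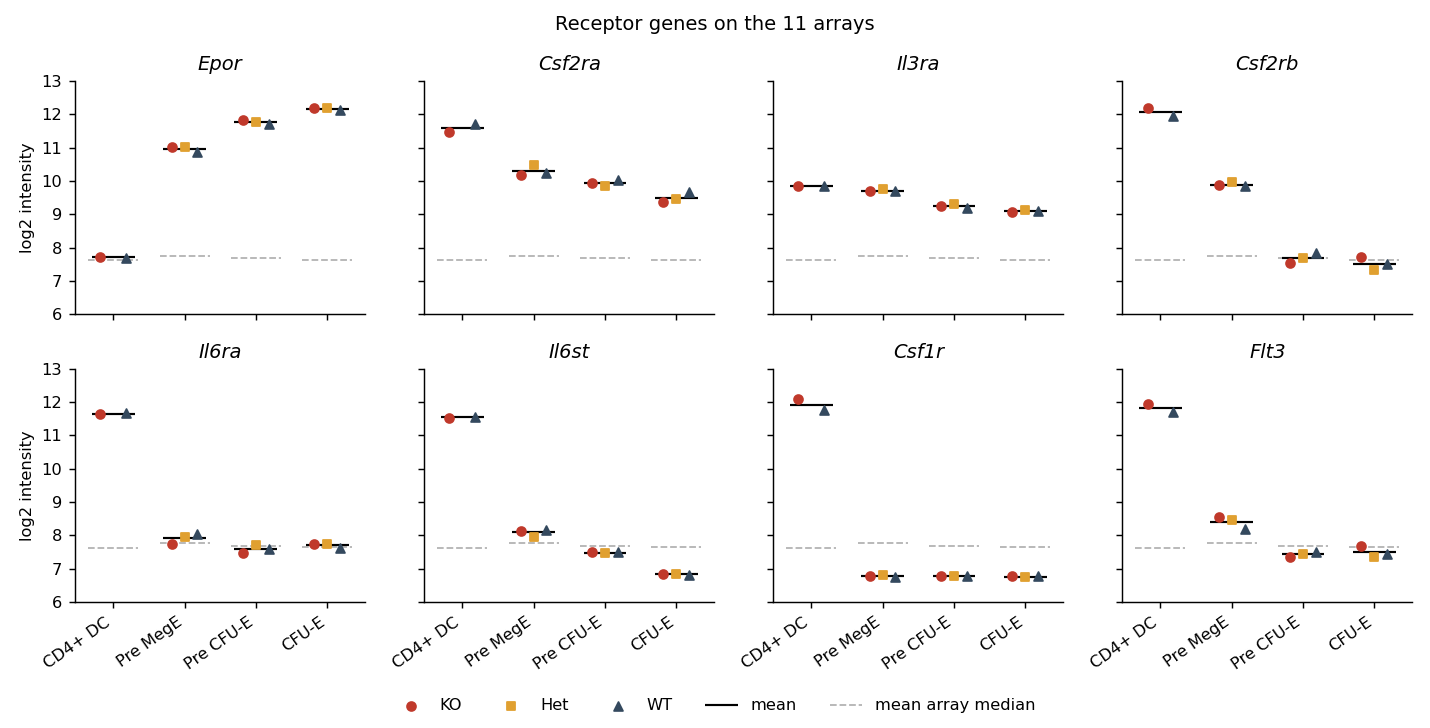
Log2 intensity of the 8 receptor genes (vertical axis) in CD4+ DC and the 3 erythroid stages (horizontal axis). Each symbol is an array (circle KO, square Het, triangle WT), black lines are means and dashed grey lines the mean array median; Epor climbs to 12.19 in CFU-E and lies at 7.72 and 7.70 in CD4+ DC, while the other 7 genes are highest in CD4+ DC.

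The receptors of the common beta family fell along the erythroid path, the beta chain to about the array median by Pre CFU-E, the alpha chains in smaller steps. Csf2rb read 9.87 in KO, 9.96 in Het and 9.85 in WT Pre MegE. It read 7.53, 7.68 and 7.83 in KO, Het and WT Pre CFU-E, and 7.71, 7.33 and 7.52 in KO, Het and WT CFU-E. Pre MegE thus stood apart, whereas Pre CFU-E and CFU-E overlapped and 4 of their 6 arrays lay below the array median. Pre CFU-E was lower than Pre MegE by 2.21 on the log2 scale (difference -2.21, SE 0.102, adjusted p = 1.75e-07), which is 4.64-fold as measured and at least 4.49-fold with values below the array median set to it. CFU-E minus Pre CFU-E was -0.16 (95% interval -0.385 to 0.074, adjusted p = 0.247), negative in 2 of 3 genotypes. That second difference depended on an array: without the KO CFU-E array it was -0.29 (adjusted p = 0.0161) and without all 3 KO progenitor arrays -0.33 (adjusted p = 0.015).

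Csf2ra, the GM-CSF receptor alpha chain, stayed well above the median at every stage. It read 10.18, 10.47 and 10.25 in KO, Het and WT Pre MegE, then 9.93, 9.84 and 10.03 in Pre CFU-E, and 9.38, 9.46 and 9.66 in CFU-E. The stages did not overlap, though the spread among genotypes was wide beside the steps. It fell by 0.37 at the first step (difference -0.37, SE 0.0845, adjusted p = 0.00381) and by 0.43 at the second (difference -0.43, SE 0.0845, adjusted p = 0.00272), and CFU-E was 1.74-fold below Pre MegE. Il3ra, the interleukin 3 receptor alpha chain, read 9.70, 9.75 and 9.69 in KO, Het and WT Pre MegE, 9.26, 9.31 and 9.20 in Pre CFU-E, and 9.07, 9.12 and 9.11 in CFU-E. These groups were tight and did not overlap. Il3ra fell by 0.46 at the first step (difference -0.46, SE 0.0456, adjusted p = 2.04e-05), and its smaller second fall of 0.16 (difference -0.16, adjusted p = 0.0207) lost its call with each array centred on its median (adjusted p = 0.0645), with quantile normalization (adjusted p = 0.0942) and without the Het Pre CFU-E (0.0794), Het CFU-E (0.0947) or KO Pre CFU-E array (0.0717).

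The chains of the interleukin 6 receptor differed in course. Il6st (gp130) read 8.14 in KO, 7.94 in Het and 8.17 in WT Pre MegE. It read 7.48, 7.47 and 7.48 in KO, Het and WT Pre CFU-E, and 6.85, 6.82 and 6.80 in KO, Het and WT CFU-E. Pre CFU-E and CFU-E lay below the array median on all 6 arrays, and the gene passed the filter through Pre MegE alone. The first step was -0.60 (SE 0.0588), given with no p since the filter favoured it. The second was -0.66 (SE 0.0588), but it compares readings below the median on both sides and is not taken here as a measured fall. CFU-E was 2.39-fold below Pre MegE as measured, and at least 1.36-fold with the array median as the floor. The Pre CFU-E values of KO and WT were exactly equal as deposited, and 17.7% of all probe sets had exactly equal deposited values on 2 or 3 of the Pre CFU-E arrays (8.99% for Pre MegE and 9.65% for CFU-E).

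Il6ra, the ligand-binding chain, lay close to the array median at every stage. It read 7.74, 7.96 and 8.03 in KO, Het and WT Pre MegE, 7.48, 7.70 and 7.60 in Pre CFU-E, and 7.75, 7.73 and 7.63 in CFU-E. Pre MegE and Pre CFU-E did not overlap, and CFU-E overlapped with both. Its difference was -0.32 at the first step (SE 0.0737, adjusted p = 0.00384, in 3 of 3 genotypes) and 0.11 at the second (95% interval -0.055 to 0.278, adjusted p = 0.253). Over both steps it was -0.21 (adjusted p = 0.0276, in 2 of 3 genotypes), a call that was lost with each array centred on its median (-0.09, adjusted p = 0.289), with quantile normalization (-0.07, adjusted p = 0.353) and without the WT Pre MegE (adjusted p = 0.143), WT CFU-E (0.151), Het Pre MegE (0.0622) or Het CFU-E array (0.106).

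Of the receptor tyrosine kinases, Flt3 was lower in Pre CFU-E than in Pre MegE, and Csf1r was below the median on all 9 progenitor arrays. Flt3 read 8.56 in KO, 8.46 in Het and 8.18 in WT Pre MegE. It read 7.34, 7.43 and 7.50 in KO, Het and WT Pre CFU-E, and 7.66, 7.35 and 7.44 in KO, Het and WT CFU-E. Pre MegE stood above the other stages, which overlapped and were below the median on 5 of 6 arrays. Pre CFU-E was below Pre MegE by 1.96-fold as measured (difference -0.97, SE 0.099) and by at least 1.65-fold with the median as the floor. Flt3 would not have passed the filter without its Pre MegE arrays, so the filter favoured this fall and it is given with no p. CFU-E minus Pre CFU-E was 0.06 (95% interval -0.164 to 0.284, adjusted p = 0.657). Csf1r read 6.79, 6.82 and 6.76 in KO, Het and WT Pre MegE, 6.77 on each Pre CFU-E array, and 6.77, 6.73 and 6.77 in KO, Het and WT CFU-E. Its value was identical on 5 of the 9 arrays, so these readings carry little information on order, and it did not enter the progenitor fit. With no filter its stage differences were -0.01 to -0.03 (adjusted p from 0.628 to 0.877 over 19933 genes).

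Across the set, 7 of the 8 genes passed the filter of the progenitor fit, which kept 10701 genes at or above the array median on at least 2 arrays. Il6st and Flt3 passed only through their Pre MegE arrays, where they are highest among the stages, so the filter favoured their calls as lower at the later stages. At the first step, Pre CFU-E over Pre MegE, 7 of the 7 were called at an adjusted p under 0.05, against 66.3% of all genes tested. Epor was the 1 called higher and 6 were called lower, against 37.1% and 29.3% of all genes, and the median difference was -0.46 against 0.04 over all genes. At the second step, CFU-E over Pre CFU-E, 4 were called against 44% of all genes, 1 higher (Epor) and 3 lower (Csf2ra, Il3ra and Il6st), against 18.7% and 25.3% of all genes. Il6st counts here although it was below the median on all 6 arrays of those stages. With only those 2 stages in the fit, Il6st and Flt3 no longer passed the filter, 5 members were tested and 2 called, Il3ra having an adjusted p of 0.0533. Over both steps, CFU-E over Pre MegE, 1 was called higher and 6 lower, against 41.5% and 35.1% of all genes (76.6% in either direction), with a median of -0.80 against 0.05. The balance of all genes depends on scaling: 3965 were higher and 3134 lower at the first step, or 5045 and 2522 with each array centred on its median, and over both steps 4443 and 3759, or 5696 and 3085. That centring moved the median of all genes over both steps to 0.17, and Epor (1.32) remained higher and the other 6 lower, with Il6ra not called. In sorted bulk RNA, fewer cells of a type and less RNA per cell cannot be told apart.

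**Figure D2:**
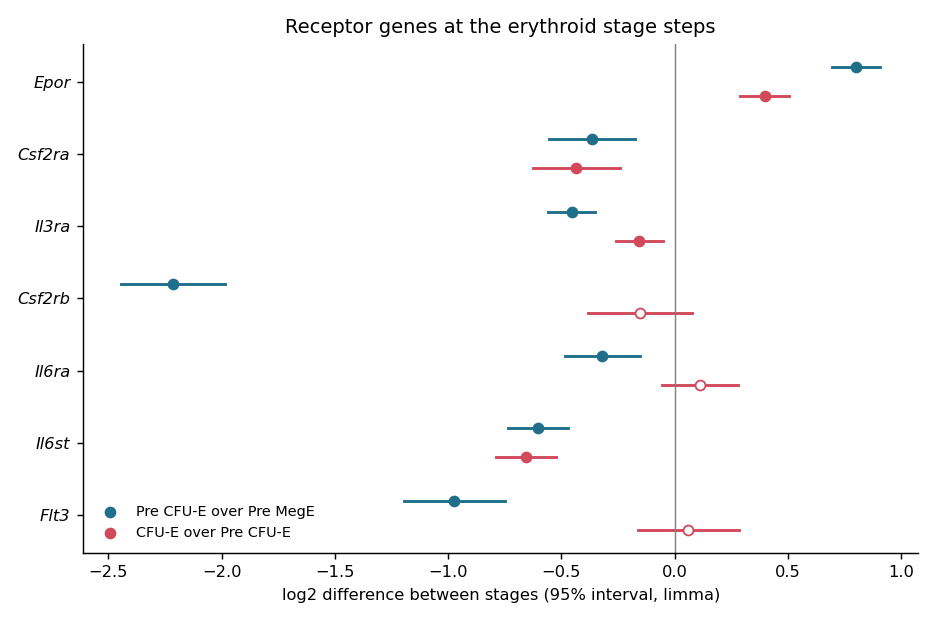
Log2 difference between neighbouring stages (horizontal axis) for the 7 receptor genes that entered the progenitor fit, with 95% limma intervals over 9 arrays; blue is Pre CFU-E over Pre MegE, red is CFU-E over Pre CFU-E, and open circles did not pass an adjusted p of 0.05. At the first step Csf2rb reads -2.21 and Flt3 -0.97. Il6st reads -0.60 and -0.66 at the steps in order, and Epor alone lies right of 0 at both. Il6st lay below the array median in both later stages, and Csf2rb and Flt3 lay below it there on most arrays.

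The timing of the changes was compared by the difference of the 2 steps within the same fit, a comparison added after the values were seen. It was called for 5 of the 7 genes, 1 positive and 4 negative, against 38.7% of all genes (24.1% positive and 14.6% negative). For Csf2rb the first step was more negative than the second by 2.06 (difference -2.06, SE 0.176, adjusted p = 5.42e-05). For Flt3, which entered the fit through its Pre MegE arrays, it was more negative by 1.03 (difference -1.03, SE 0.171). Since Csf2rb was below the median on 4 and Flt3 on 5 of the 6 Pre CFU-E and CFU-E arrays, a further fall at the second step could hardly have been seen in either gene, and these differences do not settle its timing. Epor took the larger part of its rise at the first step (difference 0.41, SE 0.0815, adjusted p = 0.00443). Il3ra (-0.30, adjusted p = 0.0156) and Il6ra (-0.43, adjusted p = 0.0257) were also more negative at the first step. These last calls depended on single arrays: without the WT Pre CFU-E array the adjusted p was 0.121 for Il3ra and 0.119 for Il6ra, and without the KO Pre CFU-E array 0.0532 and 0.123, which left 3 genes called each time. For Csf2ra (0.07, 95% interval -0.264 to 0.399, adjusted p = 0.751) and Il6st (0.05, adjusted p = 0.729, its second step below the median) no difference between the steps was detected.

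Other lineages' genes moved at the same steps. For comparison, 37.1% of all genes were called higher and 29.3% lower at the first step, and 18.7% and 25.3% at the second. All 10 granulocyte genes (among them Mpo, Elane and Csf3r) were called lower at the first step with a median of -0.92, and 4 at the second. Their summed level was 15.27 to 15.51 in Pre MegE, 14.43 to 14.73 in Pre CFU-E, 14.22 to 14.55 in CFU-E and 10.93 to 11.78 in CD4+ DC, with 9 or 10 of the 10 above the array median on every progenitor array. All 4 megakaryocyte genes with a probe set also fell at the first step (median -1.75), their summed level being 12.14 to 12.29, 10.20 to 10.36 and 10 to 10.05 over the 3 stages. Of 9 monocyte and macrophage genes, Lyz2 was the 1 above the median on progenitor arrays, and it was called lower by 1.08 (difference -1.08) at the first step. Of 3 B cell genes tested, 3 were called lower at the first step, led by Cd79b (-1.30), and 1 at the second, the summed level of the 4 measured being 11.31 to 11.40, 10.29 to 10.39 and 10.16 to 10.26 over the stages. Of 2 T and NK cell genes tested, Nkg7 was lower at both steps (-1.96 and -1.42) and Cd3e was not called, the summed level of the 5 measured being 12.62 to 12.68, 10.77 to 11.15 and 9.84 to 10.11. The part that such cells had in the falls of Csf2ra, Csf2rb, Flt3, Il3ra, Il6ra and Il6st was not tested. Of 4 erythroid genes, 3 were called higher at each step and 0 lower, their summed level being 11.50 to 11.67 in Pre MegE, 12.82 to 12.96 in Pre CFU-E and 13.76 to 13.87 in CFU-E.

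Partner chains and close relatives of the 8 receptors fell rather than rose along the stages. Of 11 listed, 10 had a probe set and 5 passed the filter. At the first step 0 were called higher and 5 lower (median -0.85, against 0.04 over all genes), and at the second 4 were lower. Among all genes tested, 29.3% were called lower at the first step and 25.3% at the second. Csf2rb2, the interleukin 3 beta chain, read 8.77, 8.69 and 8.88 in KO, Het and WT Pre MegE, 7.26, 7.29 and 7.15 in Pre CFU-E, and 7.10, 7.09 and 7.18 in CFU-E. Every Pre CFU-E and CFU-E reading lay below the array median, so Csf2rb2 passed the filter through Pre MegE alone, and the filter favoured its fall. Its first step was -1.55 as read, and its second (-0.11) compares readings below the median on both sides. Csf2rb and Csf2rb2 are near-identical copies, so how far each probe set reads the other's RNA is uncertain. Pdgfrb, a receptor tyrosine kinase of the Csf1r family, fell at both steps (-2.20 and -1.09). Il12rb2, a gp130-like chain of the interleukin 12 receptor, also fell at both (-0.85 and -0.77), as did Il27ra, which pairs with gp130 (-0.29 and -0.45). The falls of Pdgfrb, Il12rb2 and Il27ra are as read, with no floor set at the array median. Kit, the stem cell factor receptor and a gate gene, read 12.64 to 12.69 in Pre MegE and 11.67 to 11.79 in CFU-E, lower by 0.92 over both steps (difference -0.92). Il5ra, Osmr, Cntfr, Pdgfra and, in progenitors, Lifr did not pass the filter, and Il11ra1 was not analysed here.

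**Figure D3:**
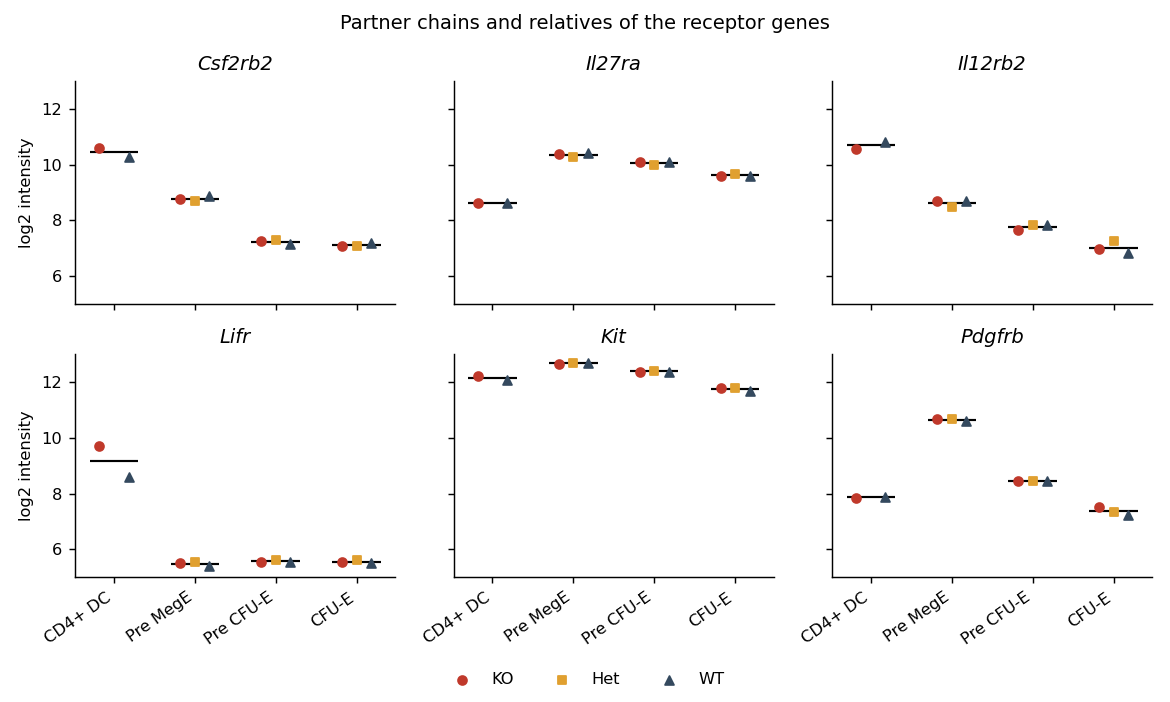
Log2 intensity of 6 partner chains and relatives (vertical axis) in CD4+ DC and the 3 erythroid stages (horizontal axis), with circles for KO, squares for Het, triangles for WT and lines for means. Csf2rb2 drops between Pre MegE (8.69 to 8.88) and Pre CFU-E (7.15 to 7.29), Pdgfrb falls at both steps, and Lifr reads 9.72 in KO and 8.60 in WT CD4+ DC.

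A further list held 22 genes of type I cytokine receptor chains and related subunits, of which 18 had a probe set and 9 were tested. Of these, 1 was called higher and 7 lower at the first step, 0 and 3 at the second, and 0 and 8 over both (medians -0.45, -0.03 and -0.44). The shares of all genes called lower were 29.3%, 25.3% and 35.1% in that order. Ebi3 fell most at the first step (-1.84). It is counted here although it is a subunit shared by interleukin 27 and interleukin 35, not a receptor chain. It was followed by the G-CSF receptor Csf3r (-1.13), Crlf3 (-1.03) and Il4ra (-0.72). Il31ra was the 1 that rose at the first step (1.06) and it fell at the second (-1.49), its Pre CFU-E arrays reading 9.35 in KO, 9.67 in Het and 9.46 in WT. Among 7 tested chains of the interferon and interleukin 10 receptors 0 were higher and 2 lower at the first step, Ifnar1 (-0.61) and Il10rb (-0.54), and 4 were lower at the second. Of 12 genes for ligands of the 8 receptors only Flt3l and Osm passed the filter in progenitors. Flt3l, the Flt3 ligand, fell by 0.47 (difference -0.47) at the first step and rose by 0.60 at the second, and Osm fell at both (-0.63 and -0.26).

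Genes that relay or dampen receptor signals were mostly lower at later stages. Of 21 tested, 1 was called higher and 14 lower at the first step, and 1 and 18 over both steps (median -0.53, against 0.05 over all genes). The shares of all genes were 37.1% higher and 29.3% lower at the first step, and 41.5% and 35.1% over both. Among feedback genes that STAT5 is known to induce, Socs2 (-2.49 over both steps), Cish (-1.50) and Pim1 (-1.41) were lower, as was the adaptor Gab2 (-1.45). Stat3, which acts below gp130, had a difference of -1.999. Jak2 (-0.55), Stat5b (-0.53) and Stat5a (-0.16), which act below Epor, were also lower. Shc1, an adaptor, was the 1 called higher over both steps (0.52). Among 10 transcription factors known to act on receptor genes, the erythroid factors Klf1 (0.71), Gfi1b (0.41), Gata1 (0.29) and Tal1 (0.25) were higher in Pre CFU-E than in Pre MegE and had no call at the second step. Gata2 (-1.64), Spi1 (PU.1, -1.41), Runx1 (-1.13), Irf8 (-0.41), Cebpa (-0.27) and Myb (-0.17) were lower. Of 4 genes of receptor shedding and trafficking, Tfr2, a transferrin receptor known to bind the Epo receptor in red cell precursors, rose at both steps (0.31 and 0.15), and Scyl2 fell at the second (-0.23). Adam10, a protease that sheds receptors, fell at the first step (-0.26), and Adam17, another such protease, rose at the second (0.21).

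In CD4+ DC the set stood the other way round: Epor was near the array median and the other 7 were higher than at any erythroid stage. Csf1r read 12.10 in KO and 11.75 in WT DC, which lay at the 96.7th and 95.5th percentile of their arrays, against 6.73 to 6.82 on the 9 progenitor arrays. Flt3 read 11.93 in KO and 11.71 in WT DC, and Csf2rb 12.18 in KO and 11.96 in WT DC. Csf2ra read 11.47 in KO and 11.70 in WT DC. Il6ra (11.65 in KO and 11.66 in WT DC) and Il6st (11.51 in KO and 11.56 in WT DC) were both far above the erythroid stages. On the deposited scale Il3ra had the smallest gap between DC and Pre MegE. It read 9.84 in KO and 9.86 in WT DC, against 9.69 to 9.75 in Pre MegE. Its percentile on the array was 82.3 in KO and 81.7 in WT DC, against 72.1 to 72.9 in Pre MegE.

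Over all 11 arrays the 8 genes passed the filter with 11560 genes. Csf1r passed through its 2 DC arrays alone, being below the median on all 9 progenitor arrays, so the filter itself favoured its call and it is given as a level, with no p. The other 7 were called in DC against each stage, 6 higher and 1 lower. The share of all genes called was 88.3% against Pre MegE, 88.6% against Pre CFU-E and 88.3% against CFU-E, so a call by itself says little. By direction, 22.5%, 25.4% and 27.3% of all genes were higher in DC against the 3 stages in order, and 65.7%, 63.1% and 61% lower. The median difference over all genes tested was -0.59 against Pre MegE, -0.60 against Pre CFU-E and -0.55 against CFU-E. That balance of all genes depends on scaling. With quantile normalization the median of all genes against Pre MegE was -0.10 and the split became 4402 higher and 5405 lower in place of 2606 and 7600. It became 4622 and 5420 in place of 2938 and 7300 against Pre CFU-E, and 4660 and 5373 in place of 3151 and 7051 against CFU-E. Every direction of the 8 genes was kept under quantile normalization and under centring.

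**Figure D4:**
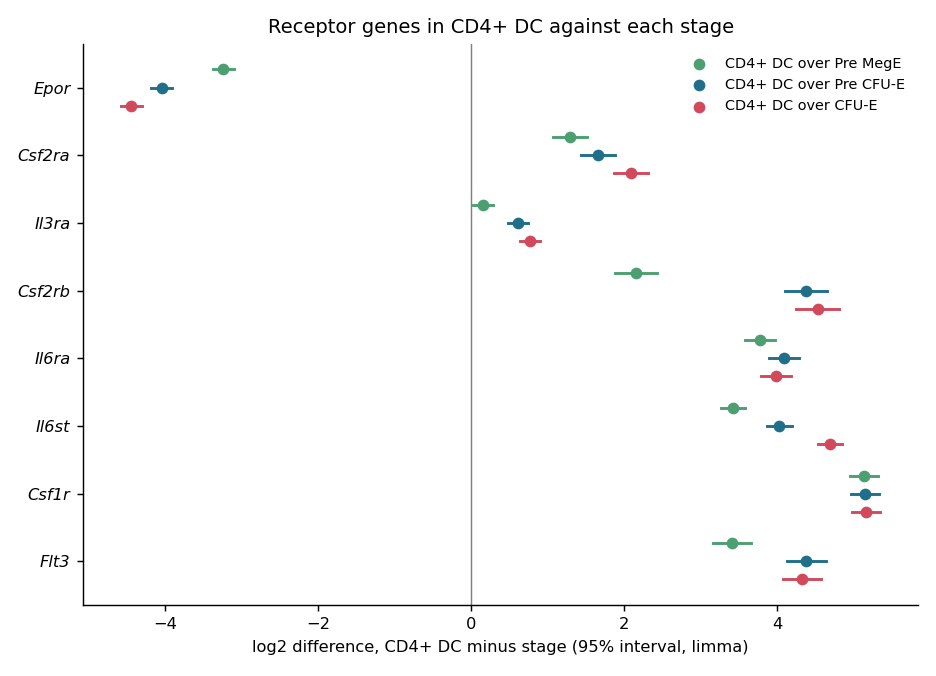
Log2 difference of CD4+ DC minus each erythroid stage (horizontal axis) for the 8 receptor genes, with 95% limma intervals over 11 arrays; green is against Pre MegE, blue against Pre CFU-E and red against CFU-E. Epor lies between -3.24 and -4.44, Csf1r near 5.15 against every stage as read, and Il3ra nearest to 0. Csf1r lay below the array median on every progenitor array and passed the filter through DC alone, so its intervals are not taken as a test.

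Epor was lower in DC by 9.46-fold than in Pre MegE (difference -3.24, SE 0.0613, adjusted p = 1.1e-11), and by 16.5-fold and 21.7-fold than in Pre CFU-E and CFU-E. The DC level of Csf1r was at least 17.9-fold, 19.0-fold and 19.5-fold above the 3 stages in order, with the array median as the floor for the stages. Flt3 was 10.6-fold above Pre MegE (difference 3.41, SE 0.113) and at least 17.7-fold and 18-fold above Pre CFU-E and CFU-E. Csf2rb was 4.46-fold above Pre MegE (difference 2.16, SE 0.123, adjusted p = 2.89e-08), and at least 20.3-fold and 21.2-fold above Pre CFU-E and CFU-E. Csf2ra differed by less, 2.45-fold, 3.15-fold and 4.26-fold. Il6st was 10.7-fold above Pre MegE and at least 14.5-fold and 14.9-fold above the later stages, and Il6ra was at least 13.4-fold, 15.7-fold and 15.4-fold above the 3 stages in order.

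Il3ra was the exception in size, with DC above Pre MegE by 0.16 (SE 0.0577, 95% interval 0.028 to 0.284, adjusted p = 0.0256), above Pre CFU-E by 0.61 and above CFU-E by 0.77. The difference from Pre MegE was 0.83 with quantile normalization, and it lost its call without the WT DC (adjusted p = 0.0806), WT Pre MegE (0.0665) or KO Pre MegE array (0.0699). In order of level, Epor ran CFU-E, Pre CFU-E, Pre MegE and DC, each apart from its neighbour. Csf2ra and Il3ra ran from DC through Pre MegE and Pre CFU-E down to CFU-E, each apart from its neighbour. Il6st ran DC, then Pre MegE, with the later stages below the median and so without a measured order. For Csf2rb, Flt3, Il6ra and Csf1r DC came first, and the last 2 places, or for Il6ra and Csf1r the last 3, had overlapping ranges.

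Relatives of the receptors followed several courses in DC. Of the 6 partner chains tested, 3 were higher and 3 lower in DC than in Pre MegE, and 5 and 1 against CFU-E. The shares of all genes were 22.5% higher and 65.7% lower against Pre MegE, and 27.3% and 61% against CFU-E. Csf2rb2 read 10.61 in KO and 10.28 in WT DC and was above Pre MegE by 1.65. Lifr, the LIF receptor that pairs with gp130, was above Pre MegE by 3.70, while Il27ra was below by 1.76 (difference -1.76). Kit, with 12.22 in KO and 12.08 in WT DC, lay between Pre MegE (-0.51) and CFU-E (0.41). Of 11 genes tested from the further type I list, 6 were higher and 3 lower than in Pre MegE, led by Il13ra1 (5.69) and Il21r (4.07). Of 8 interferon and interleukin 10 receptor chains 4 were higher and 1 lower, led by Il10ra (5.80). Lifr, Il13ra1, Il21r and Il10ra did not pass the filter in progenitors and entered through DC, so their differences are as read, not measured on both sides. Among the transcription factors Spi1 (1.76), Cebpa (1.66) and Irf8 (1.36) were above Pre MegE in DC, and Gata1 (-4.57), Klf1 (-4.09), Gfi1b (-3.94) and Tal1 (-2.30) below. The classical DC list, which holds Flt3, had a summed level of 16.06 to 16.10 in DC and 10.82 to 11.59 in progenitors. The monocyte and macrophage list, which holds Csf1r, reached 14.41 to 14.50 in DC with 8 or 9 of 9 genes above the median. Adgre1 read 12.39 in KO and 12.33 in WT DC and C1qa 9.40 and 9.95. All 5 plasmacytoid DC genes were above the median in DC, their summed level being 11.33 to 11.45 there and 10.75 to 11.02 in progenitors. Against Pre MegE, Ccr9 (3.61), Siglech (1.65) and Ly6d (0.23) were higher, Tcf4 was lower (-0.385) and Bst2 was not called (0.20). Ccr9 and Siglech did not pass the filter in progenitors and entered through DC, so their differences are as read. Of 4 B cell genes Ms4a1 was above Pre MegE (2.42, as read, since it too entered through DC) and the other 3 below, with a summed level of 10.60 to 10.98 in DC. The part of macrophages, plasmacytoid DC or B cells in the DC levels of the receptors was not tested.

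No member was called between genotypes. In the progenitors 0 of the 7 tested genes were called for KO over WT by limma, against 0.14% of all genes (0.0187% higher and 0.121% lower), and 1 had an unadjusted p under 0.05 against 5.74% of all genes. That gene was Epor, which was higher in KO at 3 of 3 stages by 0.11 on average (SE 0.047, 95% interval 0.005 to 0.218, adjusted p = 0.852). Csf2ra was lower in KO at 3 of 3 stages by -0.15 on average (95% interval -0.346 to 0.037, adjusted p = 0.955). Flt3 had the widest swings, with KO minus WT of 0.38 in Pre MegE, -0.16 in Pre CFU-E and 0.22 in CFU-E. Csf2rb gave 0.02, -0.30 and 0.19, and Il6ra -0.30, -0.12 and 0.12, at the same stages. For Il3ra (0.01, 95% interval -0.095 to 0.111) and Il6st (0.01, 95% interval -0.127 to 0.139) the intervals were narrow around 0. Het over WT and KO over Het also gave 0 calls among the 7, against 0.0374% (0.00934% higher and 0.028% lower) and 0% of all genes, with 0 of the 7 at an unadjusted p under 0.05 in either, against 5.29% and 2.38% of all genes. Of the 10 granulocyte genes, Elane was the 1 called for KO over WT, at -0.435 (adjusted p = 0.0136), and the median of the list was -0.27 against 0.003 over all genes. The part of such cells in the genotype values of the receptors was not tested.

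**Figure D5:**
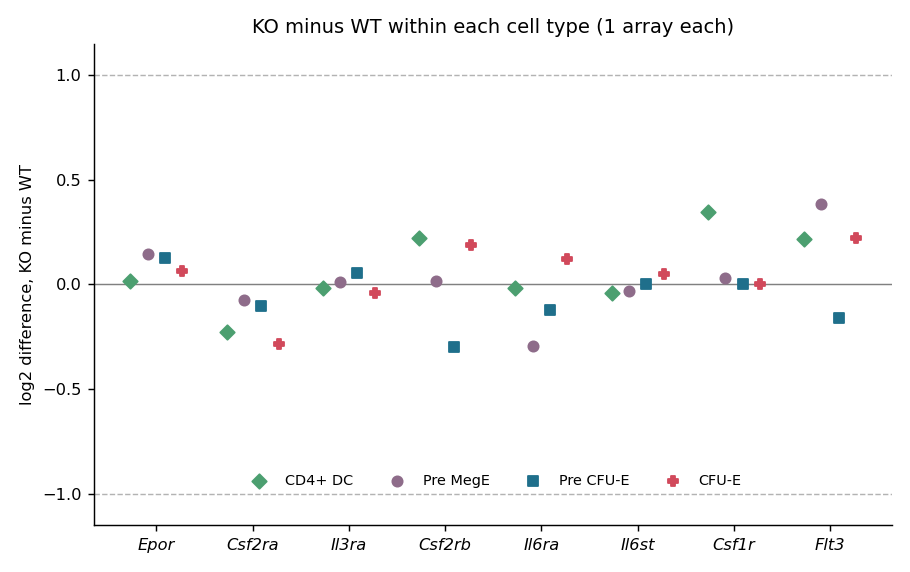
KO minus WT log2 difference (vertical axis) of the 8 receptor genes (horizontal axis) within CD4+ DC (diamond), Pre MegE (circle), Pre CFU-E (square) and CFU-E (cross), each the difference of 2 arrays; dashed lines mark a 2-fold difference. All points lie within the lines, the widest being 0.38 for Flt3 in Pre MegE and 0.35 for Csf1r in CD4+ DC.

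In CD4+ DC the KO and WT arrays have no replicate, and 0 of the 8 genes differed by more than 2-fold, against 0.313% of 10554 genes (0.114% higher and 0.199% lower in KO). Csf1r had the widest difference, 0.35 higher in KO (1.27-fold), which is at the 88.9th percentile of the sizes of all genes. Csf2rb (0.22) and Flt3 (0.22) were also above WT and Csf2ra (-0.23) below. Il6st (-0.04), Il3ra (-0.02), Il6ra (-0.02) and Epor (0.02) differed by less, beside a median size of 0.13 over all genes. Lent the spread of the progenitor arrays, the KO effect in DC minus that in progenitors was called for 0 of the 8, against 4.57% of all genes (1.56% higher and 3.01% lower), and 1 had an unadjusted p under 0.05 against 19.9%. That was Csf1r (0.34), which passed the filter through its DC arrays alone. Its progenitor side lay below the median, so the difference is as read and its p carries no weight. Of all genes 180 were higher and 348 lower in this comparison, or 513 and 622 with quantile normalization. Outside the 8, Lifr read 9.72 in KO and 8.60 in WT DC, a difference of 1.12, and Csf3r 11.24 and 9.55.

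Genes with the most similar pattern were sought among 11137 others by Pearson's r over the 11 arrays, where the gap of DC to the rest and the shared RNA of each array weigh on every value. For Epor they were Emg1 (r = 0.9992), Opa1 (0.9991), Srrt (0.9989), Cdt1 (0.9988) and Metap2 (0.9987). Each rose between Pre MegE and CFU-E, by 0.42 to 0.76, and was lower in DC. For Csf2rb they were Gsap and Esam (0.9964 each), Rassf2 (0.996), Pstpip1 (0.9957) and Csf2rb2 (0.9953). For Il6st they were Cyp4f16 (0.9989), Nfkbid (0.9988), Egr2 (0.9974), Ston2 (0.9973) and Pea15a (0.9972), and for Flt3 Grasp (0.9977), Trf (0.9971), Ms4a6b (0.9969), Psap (0.9966) and Lst1 (0.996).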

How the data were processed

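Single-colour Affymetrix arrays of 11 samples were used, 1 for each genotype and cell type. The authors deposited linear intensities made with RMA, per the submitters' processing notes. For the RMA version and the genome build, nothing is given in the sources used here. The deposited intensities were turned into log2 values. Of 29674 probe sets, 21780 had 1 gene symbol, 1618 several and 6276 none, which left 19933 genes, each read from the probe set with the highest mean.

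Genes at or above the array median on at least 2 arrays of a fit were tested with limma 3.58.1 in R 4.3.3 with Benjamini-Hochberg adjustment over all genes tested, at a threshold of 0.05. The progenitor fit (9 arrays, 10701 genes) had terms for stage and genotype and 4 residual degrees of freedom. The DC comparisons (11 arrays, 11560 genes) had terms for cell type and genotype. The comparison of the KO effect in DC with that in progenitors added a term for KO in DC, whose lone arrays are assumed to vary like the others. The KO and WT DC arrays have no replicates, so their difference is given without a test. The number of arrays limits the precision. The fits were tested on simulated data.

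The members and gene lists were chosen with earlier results of these data known. The rule for named genes took all 8 members, the partner chains, up to 5 called genes of largest size from each further list and, for 4 members, the 5 genes of highest Pearson r over the arrays. The transcription factors beyond the first 5, Jak2, Stat5a, Stat5b, Scyl2 and the marker genes were named beyond that rule, after their values were seen. Alternatives covered scaling, filter, limma's trend and robust options, probe sets, the genotype term, the samples in the fit and leaving out each array. Promoter sequences are RefSeq's (GRCm38.p6).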

Additional observations from a re-analysis of the deposited data

Results flagged for a closer look

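Outside the 8 receptors, 5 related receptor chains had a KO effect in CD4+ DC that differed from their KO effect in the progenitors, by the test of that difference in limma. They were picked because they passed that test, and the DC side rests on 1 KO and 1 WT array. Csf3r, the G-CSF receptor, read 11.24 in KO and 9.55 in WT DC, and its difference of effects was 1.88 (adjusted p = 0.00158). Lifr, the LIF receptor, read 9.72 in KO and 8.60 in WT DC (difference of effects 1.08 as read). Lifr was below the median on all 9 progenitor arrays and passed the filter through DC alone. Its progenitor side is therefore not a measured effect, and it is given with no p. The alternatives gave 1.80 to 1.98 for Csf3r and 1.04 to 1.29 for Lifr, but none could leave out a DC array, on which both values rest.

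Ifnar1, a chain of the type I interferon receptor, read 11.63 in KO and 11.06 in WT DC (difference of effects 0.625, adjusted p = 0.0076, at most 0.0347 over the alternatives). Il31ra read 7.66 in KO and 8.37 in WT DC (difference of effects -0.67, adjusted p = 0.015) and lost its call without the WT Pre CFU-E array (adjusted p = 0.0561). Il4ra read 11.13 in KO and 10.61 in WT DC (difference of effects 0.66, adjusted p = 0.0387) and lost its call under 7 of 15 alternatives, with an adjusted p of up to 0.105. Of the 10 granulocyte genes, 4 had a positive difference of effects that was called (Csf3r, Elane 0.41, Ngp 0.59 and Prtn3 0.44). In progenitors KO over WT was -0.435 for Elane, -0.28 for Ngp and -0.33 for Prtn3, so a positive difference need not be a rise in KO DC. Elane read 7.14 in KO and 7.17 in WT DC, and Mpo 7.14 and 7.03, below the array median. On the DC arrays 1 to 2 of the 10 granulocyte genes were above it. Among 8 monocyte and macrophage genes tested, C1qa (-0.63), C1qb (-0.67) and C1qc (-0.85) were called lower and Cd14 (0.998) higher, and among 4 B cell genes Cd79a (-0.69) was called lower and Ms4a1 (0.96) higher. Of these, C1qa, C1qb, C1qc, Cd14 and Ms4a1 did not pass the filter in progenitors and entered through DC, so their progenitor side is not a measured effect. The part of granulocytes, macrophages or B cells in these differences was not tested.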

How the results depend on the processing

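No result for the 8 receptors changed direction with a call under any alternative run. The receptors called at the first step numbered 5 to 7 and over both steps 5 to 7, in DC 6 to 8, and between genotypes 0 throughout. In the main fits the shares of all genes called were 66.3%, 76.6%, 88.3% to 88.6% and 0% to 0.14% in that order. They were 44% at the second step and 38.7% for the difference of the steps. The counts include Il6st and Flt3 among the stages and Csf1r in DC, which passed the filter through the group where each is highest. At the second step the count was 4, or 2 of 5 tested with only the 2 stages compared, where fewer genes and arrays entered, with a range of 2 to 5 over all alternatives. The difference of the steps was called for 5 receptors, or 3 without the WT or the KO Pre CFU-E array (3 to 5 over all alternatives), and the cause was not tested. Among all genes, the KO effect in DC gave 180 higher and 348 lower, or 513 and 622 with quantile normalization, and 71 to 247 higher and 130 to 576 lower when an array was left out. KO over WT in progenitors gave 2 higher and 13 lower, or 1 and 6 with no filter, and 0 to 2 and 1 to 24 with an array left out. The step difference gave 2575 higher and 1565 lower, or 1588 and 953 without the WT Pre CFU-E array and 1667 and 1071 without the KO one. Values below the array median bound the size of the falls of Csf2rb, Flt3 and Il6st and of the DC differences. Stages are compared within genotype, since genotype is a term of the fits, and without that term no call among the 8 receptors changed.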
